A study of Homo sapiens with 8 samples.

Results

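The apolipoprotein genes described here were the 10 rows of the expression table whose symbol was APOA1, APOA2, APOA4, APOB, APOC1, APOC2, APOC3, APOE, APOH or APOM. All 10 listed symbols were found, out of 17561 genes in all. The rule went by symbol alone, although the list was drawn up with earlier results of these data known. The table came from RNA-seq of HepG2 cells, which derive from a human liver tumor, were grown as 1 line on gelatin with insulin and dexamethasone in both groups, and were harvested 48 h after transient transfection. Of the 8 libraries, 4 came from cells given pGRHL2, which drives a flag-tagged cDNA of the epithelial transcription factor GRHL2 from the EEF1A1 promoter together with EGFP, and 4 came from cells given the control plasmid pcDNA3. The comparison asked whether ectopic GRHL2 altered the transcripts of a hepatocyte gene family in these cells. The plasmids differed in more than GRHL2, so effects of GRHL2, of EGFP and of the rest of the plasmid cannot be told apart.

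Apolipoproteins are the protein part of lipoproteins, the particles that carry triglycerides and cholesterol through the blood. APOB forms the backbone of the very-low-density particles that hepatocytes secrete, APOA1 and APOA2 are the main proteins of high-density lipoproteins (HDL), and the small C apolipoproteins and APOE move between particles and steer lipolysis and uptake by receptors. Hepatocytes are a main source of most of them, APOA4 being made chiefly by enterocytes, and the liver-enriched factors HNF4A and GATA family members act on many of their promoters.

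Promoter windows of 300 bases, from 250 before to 50 after an annotated start (RefSeq, GRCh38.p14), were found for 7 of the 10 genes, as 9 windows in all. No window was found for APOA1, APOB and APOC3. The windows are shown for APOA2 and APOH, the members with the highest levels per kb, and for LIPG and CREB3L3. The last were the genes of the lipoprotein pathway with the largest differences between the plasmids. The windows lie at chr1:161223579-161223878 on the minus strand for APOA2, chr17:66229366-66229665 on the minus strand for APOH, chr18:49561807-49562106 on the plus strand for LIPG and chr19:4153381-4153680 on the plus strand for CREB3L3. Each is printed 5′ to 3′ along its gene, and capitals mark matches to the motifs described next.
APOA2: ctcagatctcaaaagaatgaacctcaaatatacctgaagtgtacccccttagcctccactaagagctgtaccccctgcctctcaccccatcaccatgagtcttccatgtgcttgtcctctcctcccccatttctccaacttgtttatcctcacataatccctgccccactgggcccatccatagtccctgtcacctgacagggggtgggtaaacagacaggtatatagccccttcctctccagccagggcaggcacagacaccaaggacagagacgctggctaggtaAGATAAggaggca
APOH: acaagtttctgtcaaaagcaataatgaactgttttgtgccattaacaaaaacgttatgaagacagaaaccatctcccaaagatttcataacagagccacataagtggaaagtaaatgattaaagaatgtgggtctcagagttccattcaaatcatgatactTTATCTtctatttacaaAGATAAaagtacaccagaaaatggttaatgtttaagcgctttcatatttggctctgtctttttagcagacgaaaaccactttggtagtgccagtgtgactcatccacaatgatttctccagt
LIPG: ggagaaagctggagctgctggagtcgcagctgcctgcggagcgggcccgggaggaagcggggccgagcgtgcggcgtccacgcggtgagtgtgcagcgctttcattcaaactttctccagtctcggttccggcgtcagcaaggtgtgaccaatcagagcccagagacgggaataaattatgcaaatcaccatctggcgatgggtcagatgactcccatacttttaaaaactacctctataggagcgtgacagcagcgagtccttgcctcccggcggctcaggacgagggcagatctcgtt
CREB3L3: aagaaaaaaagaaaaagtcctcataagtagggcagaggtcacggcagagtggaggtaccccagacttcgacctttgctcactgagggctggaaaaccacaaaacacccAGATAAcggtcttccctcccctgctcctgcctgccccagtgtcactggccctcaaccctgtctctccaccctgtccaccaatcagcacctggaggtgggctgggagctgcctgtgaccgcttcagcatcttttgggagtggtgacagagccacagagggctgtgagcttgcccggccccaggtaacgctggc

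Both strands of every window were searched for AACCNGGTT and for AACCGGTT, forms of the site that GRHL factors bind, and for CAAAGTCCA, a form of the site of HNF4. They were also searched for AGATAA, a form of the site that zinc-finger factors such as GATA4 recognise. Other forms of these sites were not searched. The AACCNGGTT and AACCGGTT letters were found in 0 of the 9 apolipoprotein windows, compared with 0.19% and 0.17% of the 18290 windows of genes in the table. CAAAGTCCA was also found in 0 of 9, compared with 0.38% of all windows. Such exact letters are so rare over all windows that 0 of 9 cannot show whether these promoters hold GRHL or HNF4 sites. AGATAA was found in 3 of 9 windows and in 6.52% of all windows. The 9 windows are not independent, since 3 belong to APOE and partly overlap, and the difference in share was not tested. Counted from the start, the AGATAA letters began at position 38 in APOA2, at 9 in 1 of the 3 windows of APOE, and at -72 in APOH. A further match in APOH, at -89, lies on the other strand and is printed as TTATCT. CREB3L3 had the AGATAA letters at -142, and LIPG had no match. These matches describe letters and were not tested as binding sites.

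Values are log2 numbers per kb of transcript, made by the authors with the rlog transformation, which pulls the differences of genes with few reads towards 0. The library medians lay between 6.71 and 6.73, and the depth behind each value was unknown since only transformed values were used. For every gene, the mean of the 2 libraries with the same number was identical for all 4 numbers. The libraries of a pair therefore mirror each other, and the spread between libraries of 1 group is understated. Differences (pGRHL2 minus pcDNA3) are given for the 4 pairs with their SD, and were tested by limma with the pair as a block and Benjamini-Hochberg adjustment over all 17561 genes. The transfected gene was far higher in every pGRHL2 library, with GRHL2 pair differences of 8.968, 9.507, 10.259 and 9.179, so the group labels held.

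None of the 10 apolipoprotein genes was called at a limma adjusted p under 0.05, neither higher nor lower in pGRHL2. The smallest adjusted p of the family was 0.702, for APOM. Over all genes, 385 of 17561 (2.19%) were called, 297 of them higher (1.69%) and 88 lower (0.501%), whereas a fit of the genes with a mean log2 value of at least 5 called 63 higher and 81 lower. A count of 0 of 10 lies near the 2.19% of all genes. An unadjusted p under 0.05 was reached by 0 of the 10 and by 16.0% of all genes. The groups overlapped for all 10 apolipoproteins, whereas 24.0% of all genes had pGRHL2 and pcDNA3 groups that did not overlap. For each member the log2 fold change (log2 FC) was smaller than the SD of its 4 pair differences, and the 95% interval included 0. The interval bound farthest from 0 was -0.233, for APOA1, which corresponds to a 1.175-fold lower value. The differences of members with low values, however, were shrunk by the transformation. The fit moderates each variance towards a trend over all genes. For widely spread members such as APOA1 and APOB, the intervals are narrower than their own 4 pairs alone would give. In these bulk samples, fewer cells making a transcript and less RNA per cell cannot be told apart, nor can transfected and untransfected cells.

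The values of the family covered most of the range of values in these HepG2 libraries. In order of mean log2 level per kb, APOA2 (15.08) was followed by APOH (14.63), APOB (13.16), APOE (12.87), APOA1 (11.86), APOC1 (7.77), APOC3 (7.11), APOC2 (2.97), APOM (2.68) and APOA4 (1.19). This order was the same in 8 of 8 libraries, and the ranges of neighbours over the 8 libraries did not overlap. Since the pair means are identical for every gene, variation in level between the 4 pairs is absent from these values. The 8 libraries are therefore not independent checks of the order. The order holds for values divided by the mean length of the annotated transcripts. On the log2 count scale before division by length, APOB (15.89) stood above APOH (14.23) and APOA2 (14.02). The ranks and shares given next rest on the same division. The smallest gaps between neighbours were 0.28 between APOC2 and APOM and 0.29 between APOB and APOE, while the largest were 4.10 between APOA1 and APOC1 and 4.15 between APOC3 and APOC2. APOA2 ranked 10 of 17561 genes and APOH ranked 21, and 4 members lay within the top 1% of genes by level. APOC2, APOM and APOA4 lay under the median of all genes, which was 6.72. Reads on bases shared with another gene may be missing from the counts of APOC2 (53.52% of exon bases), APOA4 (43.17%) and APOC1 (40.66%). Reads of APOM may be missing as well, since its longest transcript also aligned to 6 alternate contigs. The levels of these 4 genes may therefore be too low, and the size of this effect was not tested.

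**Figure D1:**
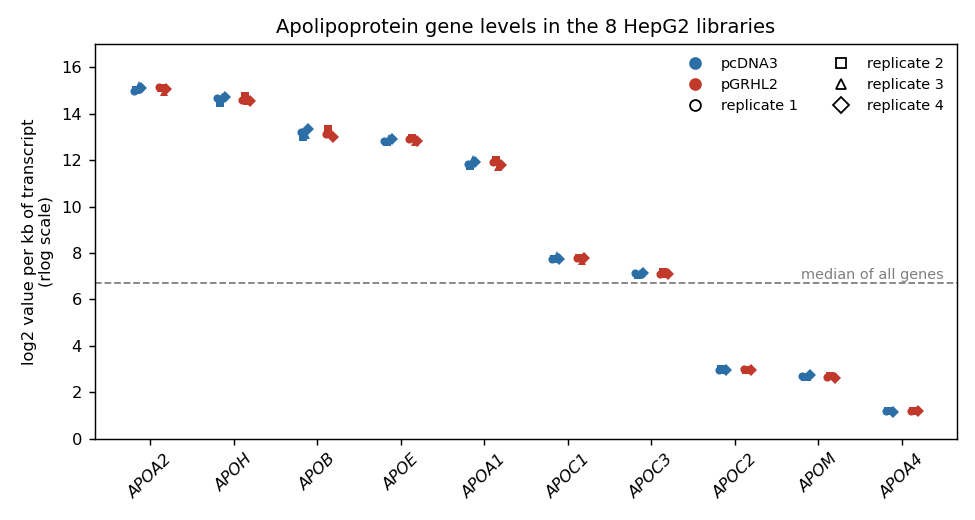
Log2 value per kb of transcript (rlog scale, vertical axis) of each of the 10 apolipoprotein genes in the 4 pcDNA3 (blue) and 4 pGRHL2 (red) libraries, with marker shapes for the replicate number and a dashed line at the median of all genes, 6.72. The levels step down from APOA2 at 15.08 to APOA4 at 1.19, and blue and red points of each gene lie side by side.

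Summed as linear values, the 10 genes held 0.833, 0.875, 0.774 and 0.786% of the total without GRHL2 in pGRHL2 libraries 1 to 4. The corresponding shares in pcDNA3 libraries 1 to 4 were 0.803, 0.763, 0.864 and 0.850%. The pGRHL2 share was higher in 2 of 4 pairs, and the groups overlapped. The means were 0.817% ± 0.046 and 0.820% ± 0.046 (SD, n = 4), SDs that the mirrored pairs understate. The difference between the plasmids was -0.003 ± 0.092 percentage points (SD over the 4 pairs). APOA2, APOH, APOB and APOE together made up 94.9% of the family's sum in both groups.

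Among the proteins of HDL, APOA1 is the main scaffold and the activator of the cholesterol-esterifying enzyme LCAT. APOA1 (ENSG00000118137, hg38 chr11:116835751-116837622, minus strand) had log2 values of 11.910, 11.992, 11.691 and 11.795 in pGRHL2 libraries 1 to 4. In pcDNA3 libraries 1 to 4 it had 11.814, 11.732, 12.033 and 11.929. The pGRHL2 library was the higher one in pairs 1 and 2 and the lower one in pairs 3 and 4. Its log2 FC was -0.03 ± 0.26 (SD over the 4 pairs), at a limma adjusted p of 0.922. Its exons share 11.22% of their bases with the antisense gene APOA1-AS, and counting was done without strand.

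APOA2, the second protein of HDL, had the highest level per kb of the 10 transcripts. APOA2 (ENSG00000158874, chr1:161222292-161223631, minus strand) had 15.157, 15.116, 14.928 and 15.055 in pGRHL2 libraries 1 to 4, and 14.994, 15.035, 15.223 and 15.096 in pcDNA3 libraries 1 to 4. As for APOA1, the pGRHL2 values were the higher ones in pairs 1 and 2 alone. The log2 FC of APOA2 was -0.02 ± 0.20 (SD over the 4 pairs) and its limma adjusted p 0.916, with a 95% interval from -0.168 to 0.122.

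APOA4 and APOM, a further pair of HDL proteins, had low values. APOA4 belongs to lipoproteins made in the intestine, and APOM is the carrier of sphingosine-1-phosphate on HDL. APOA4 (ENSG00000110244, chr11:116820700-116823304, minus strand) stayed between 1.165 and 1.206 in the 8 libraries, at a level exceeded by most genes. APOM (ENSG00000204444, chr6:31652416-31658210, plus strand) had 2.656, 2.698, 2.690 and 2.615 in pGRHL2 libraries 1 to 4, and 2.704, 2.662, 2.670 and 2.745 in pcDNA3 libraries 1 to 4. The APOM groups overlapped, with a log2 FC of -0.03 ± 0.076 (SD over the 4 pairs) and 2 of 4 pairs higher. Both values are uncertain, since 43.17% of the exon bases of APOA4 and 10.99% of those of APOM are shared with an overlapping gene, and the longest APOM transcript also aligned to 6 alternate contigs of hg38.

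APOB is the structural protein that each very-low-density and low-density particle carries. APOB (ENSG00000084674, chr2:21001429-21044073, minus strand) had log2 values of 13.102, 13.319, 13.229 and 12.990 in pGRHL2 libraries 1 to 4. In pcDNA3 libraries 1 to 4 it had 13.221, 13.004, 13.094 and 13.333. Its pair differences were the most widely spread of the family, from -0.342 in pair 4 to 0.314 in pair 2, and they balanced to a log2 FC of -0.0026 ± 0.29 (SD over the 4 pairs). The limma adjusted p was 0.995, and the 95% interval ran from -0.212 to 0.207.

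The 3 C apolipoproteins act on lipolysis: APOC2 is the cofactor of lipoprotein lipase, whereas APOC1 and APOC3 restrain lipolysis and the uptake of remnant particles. APOC1 (ENSG00000130208, chr19:44914247-44919349, plus strand) had 7.774, 7.770, 7.633 and 7.785 in pGRHL2 libraries 1 to 4, and 7.756, 7.760, 7.897 and 7.746 in pcDNA3 libraries 1 to 4. Pairs 1, 2 and 4 differed by at most 0.039, while pair 3 differed by -0.264, so that a log2 FC of -0.05 ± 0.14 (SD over the 4 pairs) came with 3 of 4 pairs higher. APOC3 (ENSG00000110245, chr11:116829706-116833072, plus strand) had 7.086, 7.194, 7.088 and 7.072 in pGRHL2 libraries 1 to 4, and 7.137, 7.029, 7.135 and 7.151 in pcDNA3 libraries 1 to 4. APOC3 was higher with pGRHL2 in pair 2 alone, and its log2 FC was -0.0030 ± 0.11 (SD over the 4 pairs) and its limma adjusted p 0.990. APOC2 (ENSG00000234906, chr19:44946035-44949565, plus strand) lay between 2.945 and 2.984 in the 8 libraries, with overlapping groups. The APOC1 and APOC2 values are uncertain, since 40.66% and 53.52% of their exon bases are shared with an overlapping gene, which for APOC2 is the readthrough gene APOC4-APOC2.

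APOE, the ligand through which remnant particles bind the low-density lipoprotein receptor family, lies beside APOC1 on chromosome 19. APOE (ENSG00000130203, chr19:44905791-44909393, plus strand) had 12.902, 12.961, 12.794 and 12.816 in pGRHL2 libraries 1 to 4, and 12.835, 12.776, 12.942 and 12.921 in pcDNA3 libraries 1 to 4. The pGRHL2 library was higher in pairs 1 and 2 and lower in pairs 3 and 4, the split also seen for APOA1 and APOA2. The log2 FC of APOE was -0.0003 ± 0.15 (SD over the 4 pairs) and its limma adjusted p 0.999.

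APOH, also known as beta-2-glycoprotein I, binds anionic phospholipids and is only loosely tied to lipoproteins. APOH (ENSG00000091583, chr17:66212033-66256525, minus strand) had 14.585, 14.781, 14.541 and 14.548 in pGRHL2 libraries 1 to 4, and 14.666, 14.469, 14.710 and 14.702 in pcDNA3 libraries 1 to 4. It was higher with pGRHL2 in pair 2 alone, where the difference was 0.312, and lower in the other three pairs by up to 0.169. The log2 FC of APOH was -0.02 ± 0.23 (SD over the 4 pairs) and its limma adjusted p 0.927.

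**Figure D2:**
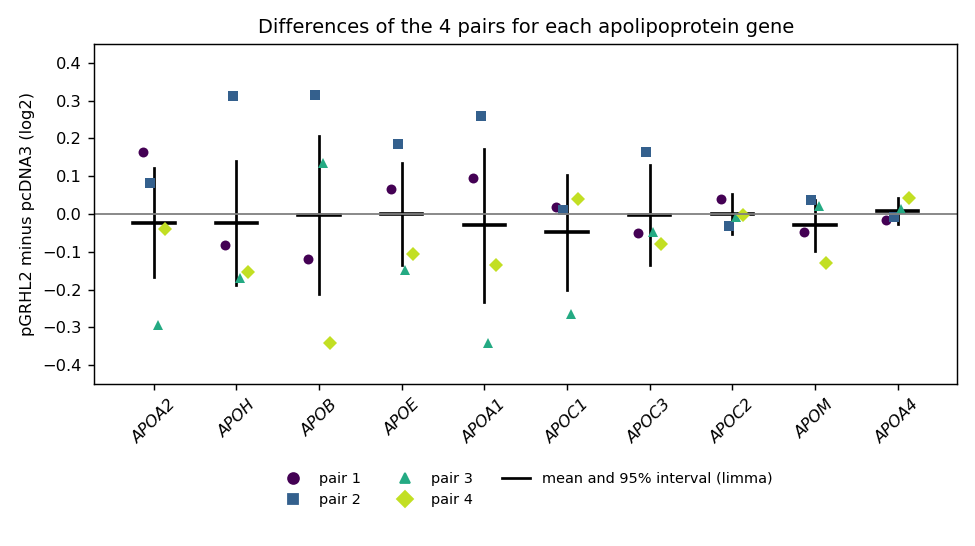
Differences in log2 value (pGRHL2 minus pcDNA3, vertical axis) of the 4 pairs for each apolipoprotein gene, ordered by level, with the limma mean (horizontal bar) and its 95% interval (vertical line). All 10 intervals include 0, and the points of the 7 genes with a level of at least 5 reach up to 0.342 from 0 while those of the 3 weaker genes stay within 0.130.

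The pair differences were smaller for the members with low values. The 3 members with a mean log2 level under 5 had pair SDs from 0.025 to 0.076, whereas the 7 others had pair SDs from 0.113 to 0.288. Over all genes, the median pair SD was 0.023 for the 2633 genes under 2 on the log2 count scale before division by length, and 0.119 for the 10476 genes at 6 or more. APOA4 lay under 2 on that scale (1.74), and APOC2 (2.31) and APOM (2.35) lay between these bands. The transformation shrinks differences at such low values, so those of APOA4, APOC2 and APOM may be understated.

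The direction in which the abundant members differed was not the same in all pairs. Of the 7 members with a level of at least 5, 4 were higher with pGRHL2 in pair 1, 7 in pair 2, 1 in pair 3 and 1 in pair 4. Their median differences were 0.018, 0.185, -0.169 and -0.105 in pairs 1 to 4. The exceptions to the downward direction were APOB in pair 3 (0.136) and APOC1 in pair 4 (0.039). Over all genes, between 51.5% and 52.3% were higher with pGRHL2 in each pair, with medians within 0.0059 of 0.

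Of 6 hepatocyte markers (ALB, AFP, TTR, TF, SERPINA1 and FGB), 6 were higher with pGRHL2 in pair 2, from 0.010 to 0.771 with a median of 0.352. In pairs 1, 3 and 4, 3, 2 and 3 of the 6 were higher, with medians of -0.006, -0.041 and -0.027. Pair 2 thus had the highest median difference both for the apolipoproteins and for these hepatocyte genes. The part of a general shift of hepatocyte transcripts in that pair in the apolipoprotein values was not tested.

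**Figure D3:**
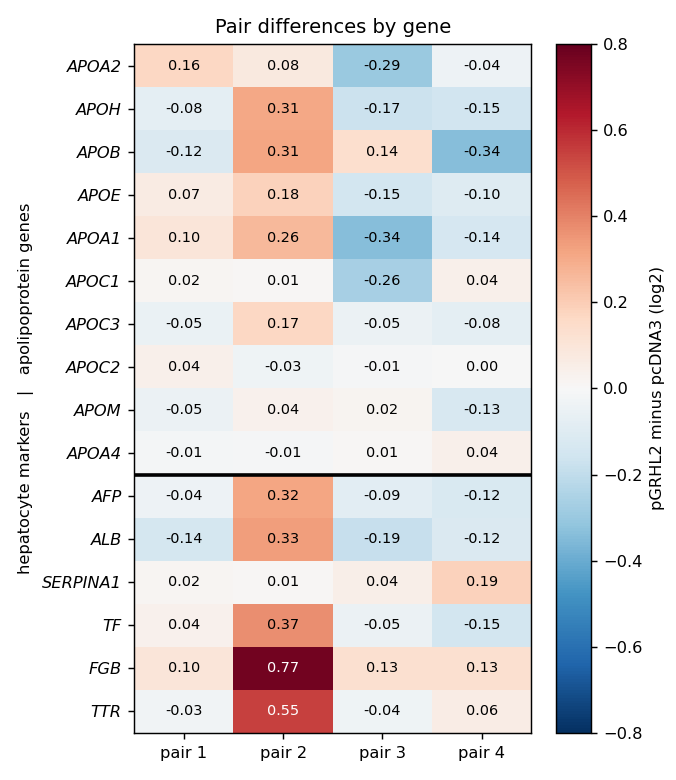
Differences in log2 value (pGRHL2 minus pcDNA3, color and printed number) of the 10 apolipoprotein genes (upper rows) and 6 hepatocyte markers (lower rows) in pairs 1 to 4 (columns). In pair 2 the 7 abundant apolipoproteins and the 6 markers are above 0, from 0.010 for APOC1 and SERPINA1 to 0.771 for FGB. Pairs 3 and 4 are mostly blue for the abundant apolipoproteins.

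The median log2 FC of the 10 genes was -0.0130, beside 0.0017 for all genes. Of the 10 log2 FC, 9 were below 0 and that of APOA4 was above 0, and scaling the libraries to one total without GRHL2, which adds 0.0135 to the log2 FC of every gene, puts APOB, APOC2, APOC3 and APOE above 0. All 10 were smaller than the SD of their pair differences.

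The hepatocyte markers were expressed in these cells at levels from 9.83 for TTR to 17.11 for AFP. Of the 6, 0 were called, which lies near the 2.19% of all genes. Of 4 cholangiocyte markers, 0 were called, beside 2.19% of all genes, with levels from 5.35 (KRT7) to 13.90 (KRT19). Their 4 log2 FC were all above 0, with a median of 0.1281. KRT7, a keratin of bile duct cells, was higher with pGRHL2 in 4 of 4 pairs, by 0.204, 0.068, 0.342 and 0.150, at a limma adjusted p of 0.097, and its groups did not overlap. Enterocyte markers were listed for 4 of 6 genes, with CDX2 at -0.43 and VIL1 at 11.37. Fibroblast and stellate markers were listed for 2 of 5, at levels of 5.08 and 5.82. Endothelial markers were listed for 2 of 4, at 1.91 and 5.43. Leukocyte and macrophage markers were listed for 3 of 5, from -0.66 (CD163) to 13.27 (LYZ). None of the markers of these other cell types was called by limma at an adjusted p under 0.05, beside 2.19% of all genes. Groups that did not overlap, seen in 24.0% of all genes, were not particular to KRT7. They were also found for 1 of 4 enterocyte markers (ALPI, log2 FC 0.08, limma adjusted p of 0.0736). The same held for 1 of 2 fibroblast and stellate markers (COL1A1, 0.20, limma adjusted p of 0.0838) and for 2 of 6 hepatocyte markers.

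The wider lipoprotein pathway was examined through 6 lists with 84 genes, of which 78 were in the table. Of these 78, 1 was called higher and 2 were called lower, beside 1.69% and 0.501% of all genes. Their median log2 FC was 0.0099, and 75 were not called. An unadjusted p under 0.05 was reached by 12 of the 78, and the groups did not overlap for 15, beside 16.0% and 24.0% of all genes.

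**Figure D4:**
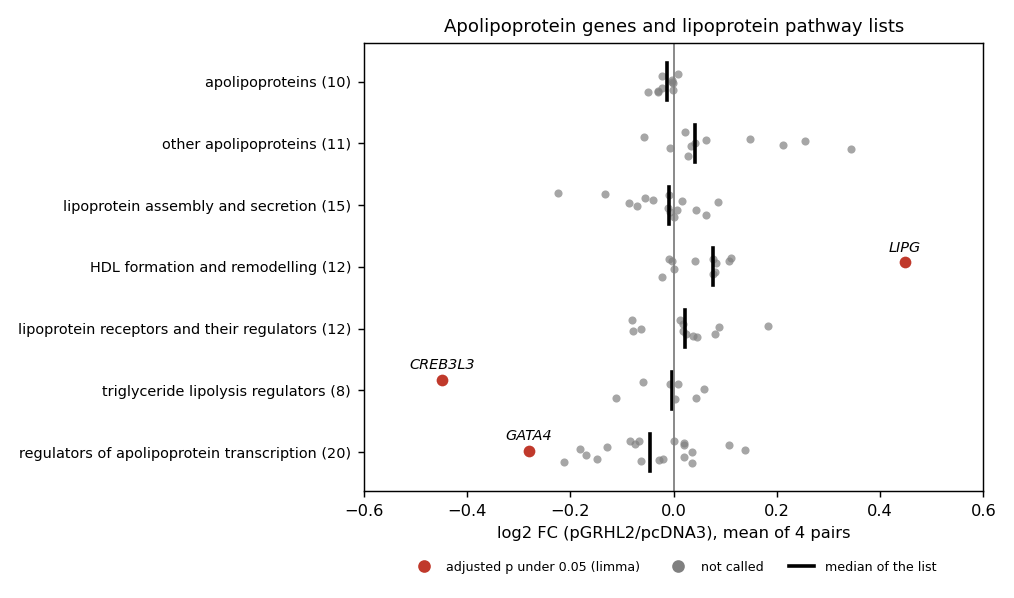
Log2 FC (pGRHL2/pcDNA3, mean of 4 pairs, horizontal axis) of the apolipoprotein genes and of the genes of 6 lipoprotein pathway lists, with the number of genes in brackets, list medians as vertical bars and called genes in red. The 10 apolipoproteins form the tightest row, around a median of -0.0130, and the red points are LIPG at 0.45, CREB3L3 at -0.45 and GATA4 at -0.28.

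The gene called higher was LIPG, which encodes endothelial lipase, a phospholipase that breaks down HDL. LIPG had log2 values of 5.165, 5.066, 5.104 and 5.067 in pGRHL2 libraries 1 to 4, and 4.588, 4.687, 4.649 and 4.686 in pcDNA3 libraries 1 to 4. The groups did not overlap, and LIPG was higher in 4 of 4 pairs. Its log2 FC was 0.45 ± 0.093 (SD over the 4 pairs), at a limma adjusted p of 0.00254. The other 11 of the 12 genes of HDL formation and remodelling were not called, and the list median was 0.0761. The lowest of them was SORL1 (-0.02 ± 0.30), a sorting receptor related to the low-density lipoprotein receptor.

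The pathway gene with the largest decrease was CREB3L3, a liver and intestine transcription factor held in the endoplasmic reticulum membrane, whose known targets include APOA4 and APOC2. CREB3L3 had 7.367, 7.313, 7.333 and 7.293 in pGRHL2 libraries 1 to 4, and 7.734, 7.788, 7.768 and 7.807 in pcDNA3 libraries 1 to 4. Every pGRHL2 value was below every pcDNA3 value. Its log2 FC was -0.45 ± 0.063 (SD over the 4 pairs), at a limma adjusted p of 0.00545. APOA4 and APOC2 themselves had log2 FC of 0.0076 and -0.0008, on levels where the transformation leaves little difference to be seen. The other 7 of 8 triglyceride lipolysis regulators were not called, the highest being ANGPTL8 (0.06 ± 0.054), an inhibitor of lipoprotein lipase.

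Among 20 regulators of apolipoprotein transcription, 0 were called higher and 1 was called lower, beside 1.69% and 0.501% of all genes. Their median log2 FC was -0.0459. GATA4, a zinc-finger factor of liver and gut endoderm, had 8.864, 8.842, 8.798 and 8.894 with pGRHL2, and 9.115, 9.137, 9.182 and 9.086 with pcDNA3, in libraries 1 to 4. The groups did not overlap, and the log2 FC was -0.28 ± 0.081 (SD over the 4 pairs), at a limma adjusted p of 0.0497. This call lies at the threshold and was lost in each fit that left out 1 pair, where the limma adjusted p ranged from 0.0724 to 0.214. HNF4A, a central factor of hepatocyte gene expression, differed by -0.07 ± 0.17 on the log2 scale, at a limma adjusted p of 0.710. NR1H3, the oxysterol receptor LXR alpha, had the highest log2 FC of the list (0.14 ± 0.11) and a limma adjusted p of 0.327.

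**Figure D5:**
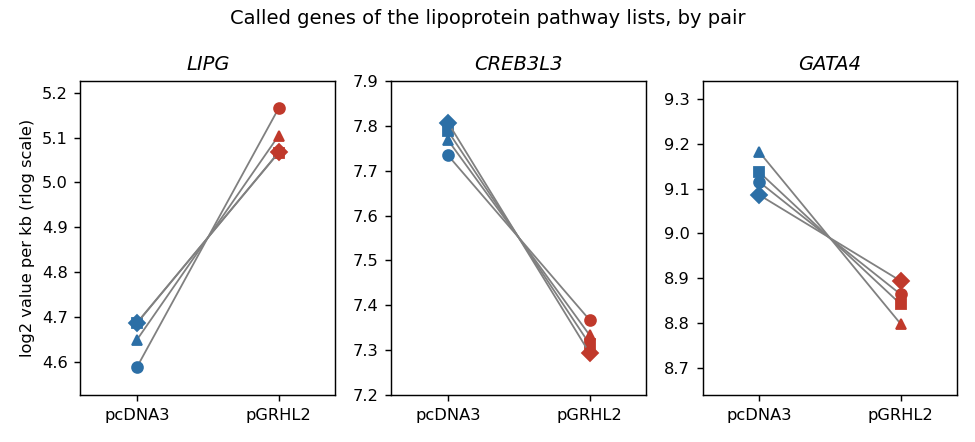
Log2 values per kb (rlog scale, vertical axes, each panel with its own range) of LIPG, CREB3L3 and GATA4, with a line joining the pcDNA3 and pGRHL2 libraries of each pair. All 4 lines rise for LIPG, by 0.379 to 0.577, and all 4 fall for CREB3L3 and for GATA4. The crossing at one point reflects the identical pair means.

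Of 15 genes of lipoprotein assembly and secretion, 0 were called in either direction, beside 2.19% of all genes, with a median log2 FC of -0.0098. MTTP, the transfer protein that loads lipid onto APOB, had the lowest value of the list, with a log2 FC of -0.22 ± 0.22 (SD over the 4 pairs) and a limma adjusted p of 0.215. MTTP was lower with pGRHL2 in 3 pairs and higher in pair 2 (0.095). KLHL12, an adaptor of the ubiquitin ligase that enlarges transport vesicles, had the highest value (0.09 ± 0.14).

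Of 12 lipoprotein receptors and their regulators, 0 were called, beside 2.19% of all genes, with a median log2 FC of 0.0219. They ranged from LSR, a receptor for remnant particles (-0.08 ± 0.097), to LRPAP1, a chaperone of the receptor family (0.18 ± 0.060, limma adjusted p of 0.146). LRPAP1 was higher in 4 of 4 pairs, by 0.118 to 0.257.

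Of 11 other apolipoproteins in the table, 0 were called, beside 2.19% of all genes, with a median log2 FC of 0.0414. APOL6, a member of the apolipoprotein L family, had the highest log2 FC, 0.34 ± 0.21 (SD over the 4 pairs). Its limma adjusted p was 0.0545, just outside the threshold. APOL6 was higher with pGRHL2 in 4 of 4 pairs, by 0.341, 0.648, 0.163 and 0.227. APOL3 of the same family had the lowest log2 FC of the list (-0.06 ± 0.092).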

How the data were processed

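RNA-seq of mRNA (paired-end) was performed on HepG2 cells transfected with pGRHL2 or pcDNA3, with 4 libraries per plasmid described as independent biological replicates. Groups and replicate numbers come from the sample labels. The authors aligned reads with Hisat2 to the hg38 build, as their methods state, counted them over exons with HTSeq (union mode, unstranded, minimum alignment quality of 10), removed genes with few reads, applied rlog of DESeq2 and divided by mean transcript length. The submitters' processing notes name HISAT2 2.2.1, HTSeq 0.9.1 and DESeq2 1.40.2.

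The deposited values are log2 values, although the table is named as FPKM: 3.71% were below 0, and adding log2 of the transcript length in kb gave a floor at 0.06. A stray character was removed from 1 value, and 0 columns belonged to other samples. Pair means were identical for 17561 of 17561 genes (largest spread 1.5e-13), a step that the methods do not describe. Deviations of same-numbered libraries are opposite by construction, so the correlation check for pairing is void, and the replicate number entered the fits as a block (3 residual degrees of freedom).

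Differences were tested by limma 3.58.1 in R 4.3.3 (lmFit, eBayes with trend) over all genes, with Benjamini-Hochberg adjustment and a threshold of 0.05, after the fit had been tested on simulated data. P-values measure the spread between these 4 pairs. Loci and shared exon bases come from GENCODE release 44, transcript copies from minimap2 2.31-r1302 (98% identity and 50% of transcript length as minima). The genes named were GRHL2, the 10 apolipoproteins, the called genes and both extremes of each pathway list, and HNF4A, NR1H3 and MTTP. The apolipoproteins and all lists were chosen with earlier results of these data known. Alternatives were an unblocked fit, arrayWeights, robust eBayes, median or total scaling, genes at a mean log2 value of 5 or more, trends on GC content, length and level taken out by splines with 5 degrees of freedom, an adjusted p under 0.01, and leaving out each pair.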

Additional observations from a re-analysis of the deposited data

Results flagged for a closer look

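In 3 of the 24 genes examined, 1 pair difference lay far from the other three, by a criterion that chance meets in about 1 of 20 such groups. APOC1 differed by -0.2635 (log2, pGRHL2 minus pcDNA3) in pair 3 and by 0.010 to 0.039 in the other pairs. APOC3 differed by 0.1649 in pair 2 and by -0.079 to -0.047 in the others. NR1H3 differed by -0.0305 in pair 3 and by 0.177 to 0.211 in the others.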

How the results depend on the processing

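The apolipoprotein genes had 0 calls, higher or lower, under each alternative run, the fit without the replicate block and the fits leaving out 1 pair included, except that APOA4, APOC2 and APOM were not tested at a mean value of at least 5, where 7 of the 10 remained in the fit. Their log2 FC lay near 0 and some changed sign. With arrayWeights, they were 0.0204 (APOA1), 0.0250 (APOA2), 0.0012 (APOB), 0.0053 (APOC2), 0.0007 (APOC3) and 0.0296 (APOE), and SORL1 was 0.0192. With libraries rescaled to one total without GRHL2, which adds 0.0135 to every log2 FC and so fixes these signs in advance, they were 0.0108 (APOB), 0.0127 (APOC2), 0.0105 (APOC3) and 0.0132 (APOE). With trends removed, APOA4 was -0.0227 and SORL1 0.0038.

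Leaving out 1 pair gave log2 FC from -0.1269 to 0.0737 for APOA1, -0.085 to 0.0678 for APOA2, -0.0035 to 0.015 for APOA4, -0.1083 to 0.1106 for APOB, -0.0782 to 0.0227 for APOC1, -0.0139 to 0.0097 for APOC2, -0.059 to 0.0223 for APOC3, -0.062 to 0.049 for APOE, -0.1347 to 0.0257 for APOH, -0.0526 to 0.0028 for APOM, -0.1246 to 0.0108 for HNF4A and -0.1579 to 0.0769 for SORL1. The median of the 10 ranged from -0.0605 to 0.0172, and the difference in their share from -0.0413 to 0.0258 percentage points. Genes called over the whole table ranged from 79 to 156 higher and from 8 to 68 lower.

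Without the replicate block, which counts each pair as independent libraries, 1821 genes were higher and 1427 lower, and of the pathway genes 7 and 6. The counts of all genes were 503 and 221 with arrayWeights, 495 higher and 93 lower with rescaling, 63 higher and 81 lower at a mean value of at least 5, 152 higher and 66 lower with trends removed, and 77 and 10 at an adjusted p under 0.01. Of the pathway genes, 2 were higher with robust eBayes, arrayWeights or rescaling, where APOL6 was added (limma adjusted p of 0.0473, 0.0262 and 0.0289), and 0 at a mean value of at least 5, which removes LIPG. The number lower was 1 with trends removed (GATA4 at 0.0625), at an adjusted p under 0.01 and in each fit without 1 pair. LIPG (0.0114 to 0.0267) and CREB3L3 (0.0302 to 0.0363) stayed called in the fits without 1 pair. Other causes of these moves were not tested. Unknown depth and rlog shrinkage limit what APOA4, APOC2 and APOM can show.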

Other observations

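Other members of the apolipoprotein L family, named here after their values were seen, had values above 0 without passing the threshold. APOL1, the serum protein known for lysing trypanosomes, had pair differences of 0.199, 0.241, 0.225 and 0.179, with a log2 FC of 0.21 ± 0.027 (SD, n = 4 pairs) and a limma adjusted p of 0.0834. APOL2 had pair differences of 0.390, -0.021, 0.303 and 0.348 and a limma adjusted p of 0.139. APOL4, at a level where rlog leaves little difference to be seen, had pair differences from -0.012 to 0.066. With APOL6 and APOL3, these are the 5 genes of the family in the table, and 0 of 5 were called, beside 2.19% of all genes.

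The nuclear receptors NR2F1 and NR2F2, also named after their values were seen, bind apolipoprotein promoters. NR2F2 was lower with pGRHL2 in 4 of 4 pairs, with differences of -0.171, -0.322, -0.296 and -0.063 and a limma adjusted p of 0.130. NR2F1 was lower in 4 of 4 pairs, with differences of -0.031, -0.116, -0.374 and -0.156 and a limma adjusted p of 0.261. For NR2F6 of the same list, the differences were -0.058, 0.258, -0.262 and -0.054, at a limma adjusted p of 0.919. SEC23A, a subunit of the vesicle coat that carries secreted proteins out of the endoplasmic reticulum, was lower in 4 of 4 pairs by 0.043 to 0.125, with a limma adjusted p of 0.267. The same sign in all 4 pairs was seen in 24.0% of all genes, in 5 of the 20 regulators and in 2 of the 15 assembly and secretion genes.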
